A study of Homo sapiens with 6 samples.

Results

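Translation initiation factors are the proteins that bring the initiator tRNA, the mRNA and the ribosomal subunits together at a start codon. The members here were all protein-coding genes whose symbol begins with EIF followed by a digit between 1 and 6, which gave 56 of the 58735 genes in the expression table. The cells were HaCaT, an immortalised line of human keratinocytes, labelled wild type, and libraries were made from total RNA with a NEBNext kit. One group of 3 libraries came from cells given dacomitinib, a drug that binds EGFR and related receptor kinases covalently, for 48 h from 70% confluence, and the other group of 3 libraries came from control cells. The design text attaches 0.1% DMSO to the dacomitinib group, while the sources used here give neither a dose nor a vehicle for the control group. The dacomitinib libraries were assigned to their columns by elimination, since the other columns carry the initial of the control titles, and every direction given here rests on that assignment. Replicates are not labelled as separate cultures, and a p-value here thus measures the spread between libraries, which may be technical. The strand setting of the counting was not given in the sources used here.

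Initiation proceeds in steps that the factor numbers follow. eIF1 and eIF1A hold the small ribosomal subunit in a scanning state, eIF2 carries the initiator tRNA and is recharged with GTP by eIF2B, eIF3 scaffolds the small subunit, the eIF4 factors bind the cap and unwind the mRNA leader, and eIF5, eIF5B and eIF6 govern GTP hydrolysis and the joining of the large subunit. The pathway has well known points of regulation: EIF2AK kinases phosphorylate eIF2 alpha and slow initiation, and EIF4EBP proteins sequester the cap-binding protein eIF4E until mTORC1 phosphorylates them. These are mostly regulated as proteins, and the values here are mRNA levels only.

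The promoters of 6 members described further on are shown first, chosen to give examples with and without the E-box CACGTG (in capitals) among lower and higher members. They are the 250 bases before the annotated start, 5′ to 3′ along the gene, from RefSeq on GRCh38.p14. EIF4G1, EIF4E, EIF5A and EIF2S1 were lower with dacomitinib, and EIF3F and EIF1 were higher.
EIF4G1 (chr3:184314356-184314605, plus strand): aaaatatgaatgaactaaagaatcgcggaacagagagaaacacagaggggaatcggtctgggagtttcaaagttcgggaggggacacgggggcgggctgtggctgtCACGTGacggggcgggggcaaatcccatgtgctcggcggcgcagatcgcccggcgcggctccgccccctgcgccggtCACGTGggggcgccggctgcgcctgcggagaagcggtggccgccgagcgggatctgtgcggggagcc
EIF4E (chr4:98929134-98929383, minus strand): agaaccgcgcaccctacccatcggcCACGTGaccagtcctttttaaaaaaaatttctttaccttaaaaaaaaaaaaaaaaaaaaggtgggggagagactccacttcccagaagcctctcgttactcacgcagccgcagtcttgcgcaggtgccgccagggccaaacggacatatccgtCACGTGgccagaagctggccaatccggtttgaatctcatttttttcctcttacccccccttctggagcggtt
EIF5A (chr17:7306749-7306998, plus strand): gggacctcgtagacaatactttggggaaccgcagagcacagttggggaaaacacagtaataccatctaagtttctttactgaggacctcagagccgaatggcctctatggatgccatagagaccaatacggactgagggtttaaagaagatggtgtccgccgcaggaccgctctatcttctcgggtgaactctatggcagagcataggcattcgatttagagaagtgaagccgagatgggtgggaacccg
EIF2S1 (chr14:67360078-67360327, plus strand): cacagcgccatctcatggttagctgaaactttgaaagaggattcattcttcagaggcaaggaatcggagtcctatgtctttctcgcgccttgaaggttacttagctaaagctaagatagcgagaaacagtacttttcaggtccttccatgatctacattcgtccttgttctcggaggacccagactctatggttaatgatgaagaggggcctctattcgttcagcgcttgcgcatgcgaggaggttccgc
EIF3F (chr11:7987087-7987336, plus strand): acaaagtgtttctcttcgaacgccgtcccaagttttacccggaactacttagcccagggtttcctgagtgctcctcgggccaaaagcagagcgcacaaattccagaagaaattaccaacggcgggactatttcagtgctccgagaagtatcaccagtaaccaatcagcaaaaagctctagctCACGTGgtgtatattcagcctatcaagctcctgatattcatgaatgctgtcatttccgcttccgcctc
EIF1 (chr17:41688635-41688884, plus strand): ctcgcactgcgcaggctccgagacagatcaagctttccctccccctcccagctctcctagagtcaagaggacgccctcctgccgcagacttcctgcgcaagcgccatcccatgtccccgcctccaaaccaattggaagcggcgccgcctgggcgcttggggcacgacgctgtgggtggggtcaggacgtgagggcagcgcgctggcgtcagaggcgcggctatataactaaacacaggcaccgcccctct
EIF4G1 and EIF4E each held 2 copies of the E-box, EIF3F held 1, and EIF5A, EIF2S1 and EIF1 held none. They were picked to show both cases, so nothing follows from this on direction. Counts over all members with a promoter are given further on.

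Sequencing depth was similar in the 2 groups, with 15171200 to 16179273 fragments on genes in the dacomitinib libraries and 14960650 to 16166582 in the control libraries. Levels are in FPKM, fragments scaled by the authors to gene length and between libraries. The scaling between libraries equals median-ratio size factors over genes with fragments in every library, not the fragment totals. Differences are on the log2(FPKM + 1) scale, which understates changes of low genes. The 10 keratinocyte markers were all measured above a mean of 1 FPKM, and their summed level was 1062 to 1256 FPKM with dacomitinib and 1341 to 1411 FPKM in control. In the gene test described below, KRT17, DSG3 and CDH1 were called higher, 5 were called lower and 2 did not pass. These are 30% and 50%, beside 25.4% and 34.8% of all tested genes. Rescaled to a fixed total per library, 4 were higher and 1 lower (40% and 10%, beside 42.0% and 19.8% of all tested genes). The summed level of the cycling cell markers MKI67, TOP2A and CCNB1 was 32.1 to 34.8 FPKM with dacomitinib and 407 to 413 FPKM in control. In bulk RNA, fewer cycling cells and less of such RNA per cell cannot be told apart, and the part of this difference in the results below was not tested. The summed endothelial markers were 10.6 to 13.5 FPKM with dacomitinib and 1.81 to 2.20 FPKM in control, from CDH5 mainly, with KDR listed at 0 in all libraries, and their part was not tested either. Markers of 2 other types were low, but their sums were also higher without overlap. The summed fibroblast markers were 1.00 to 1.96 FPKM with dacomitinib and 0.224 to 0.523 FPKM in control, with COL1A2 listed at 0. That rise came from DCN and LUM, while the means of COL1A1 (0.216 FPKM with dacomitinib, 0.330 FPKM in control) and VIM were lower. The summed melanocyte markers were 1.94 to 2.40 FPKM with dacomitinib and 1.08 to 1.42 FPKM in control, with TYR listed at 0. The summed leukocyte markers overlapped, at 0.564 to 1.05 FPKM with dacomitinib and 0.456 to 1.13 FPKM in control.

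Of the 56 initiation factor genes, 52 had a mean of at least 1 FPKM and were tested. Among them 29 were lower with dacomitinib and 11 were higher at a Benjamini-Hochberg adjusted p under 0.05 (limma, over 13748 genes), and 12 did not pass. The background was high: 60.2% of all tested genes were called, 25.4% as higher and 34.8% as lower. Of the tested initiation factors 76.9% were called, 21.2% as higher and 55.8% as lower. Their median difference was −0.30, against −0.06 over all tested genes. Large differences were uncommon among them, since 3 of 52 differed by 1 or more on the log2 scale (5.77%), against 12.4% of all tested genes. The libraries of the 2 groups did not overlap in 42 of the 52, or 80.8%, against 67.1% of all tested genes. The members were also abundant genes, with a median level of 23.9 FPKM, against 5.99 FPKM over all tested genes. The 4 genes below the limit were EIF4EBP3, EIF4E3, EIF4E1B and EIF1AY.

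**Figure D1:**
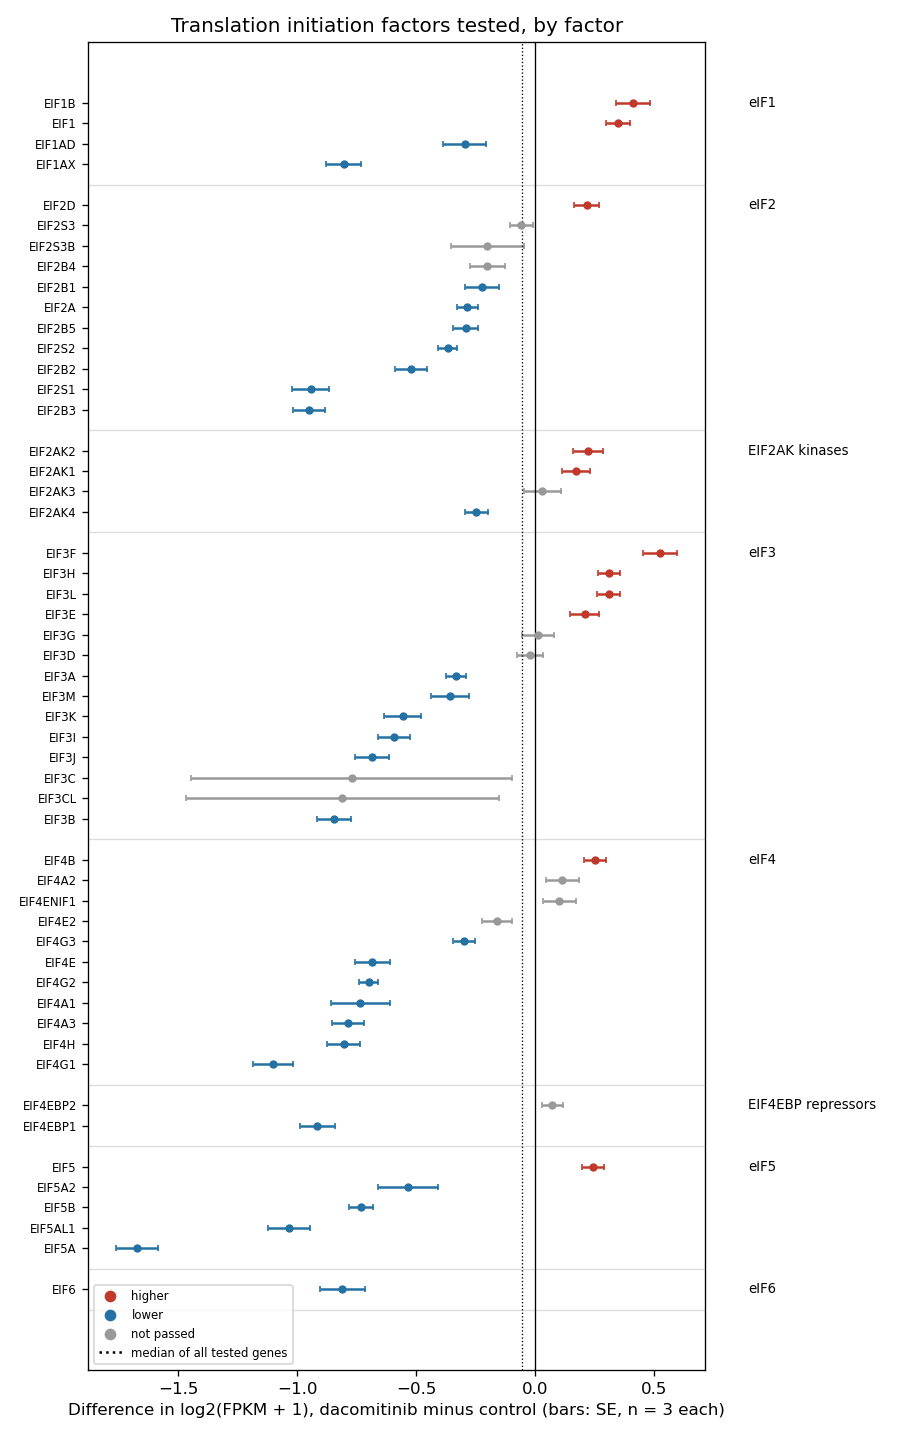
Difference of each tested initiation factor gene between dacomitinib and control on the log2(FPKM + 1) scale (horizontal axis, positive is higher with dacomitinib), grouped by factor number, with bars for the standard error (n = 3 each), colours for the call and a dotted line at the median of all tested genes. The 29 lower genes reach −1.67 at EIF5A and the 11 higher genes reach 0.53 at EIF3F.

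The count in each direction depended on how libraries were scaled to each other. On values rescaled to a fixed total per library (TPM), 19 members were called lower and 18 higher, against 2721 lower and 5779 higher over all genes. TPM moved the median of all genes to 0.23, a shift of 0.29. The members' median relative to that of all genes was nearly the same in both, at −0.24 with the deposited scaling and −0.25 with TPM. With median-ratio scaling it was −0.23, with voom −0.26, and after quantile normalisation smaller, at −0.17. The whole set took 0.977%, 0.968% and 0.983% of the fragments in the dacomitinib libraries, against 1.06%, 1.03% and 1.09% in the control libraries. This share is a division by each library's fragment total without a length correction, and thus also a scaling. The groups did not overlap in it (two-sided exact permutation p = 0.1, the smallest that 3 against 3 allows). Per length, the summed level was 1679 ± 53.7 FPKM with dacomitinib and 2095 ± 67.2 FPKM in control (SD, n = 3 each), a log2 ratio of −0.32 that became −0.0027 on TPM.

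**Figure D2:**
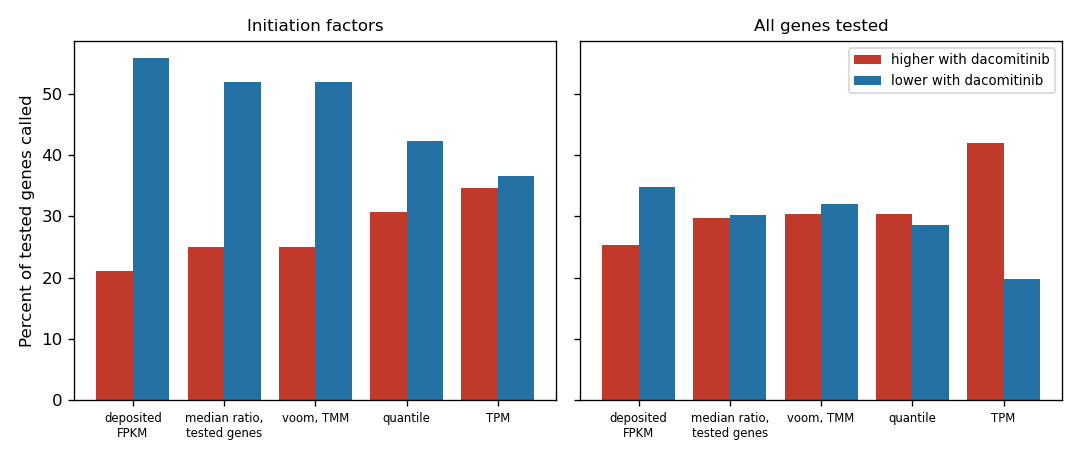
Percent of tested genes called higher and lower with dacomitinib (vertical axis) under each scaling between libraries, for the 52 initiation factors (left panel) and all 13748 tested genes (right panel). Among the initiation factors the lower share exceeds the higher share under all 5 scalings, from 55.8% and 21.2% with the deposited scaling to 36.5% and 34.6% with TPM.

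The factors that hold the ribosome in its scanning state moved in opposite directions. EIF1, the start-codon fidelity factor eIF1, had 165, 155 and 164 FPKM with dacomitinib, against 122, 132 and 125 FPKM in control. All dacomitinib libraries stood above all control libraries, a difference of 0.35 (SE 0.05, adjusted p = 0.00103). Its paralog EIF1B, at 11.9, 11.8 and 12.3 FPKM with dacomitinib against 8.20, 9.77 and 8.32 FPKM in control, was higher by a like amount, 0.41 (SE 0.07, adjusted p = 0.00233). EIF1AX, which encodes eIF1A, the partner of eIF1 on the small subunit, had 8.21, 9.37 and 8.99 FPKM with dacomitinib, against 15.2, 15.9 and 17.6 FPKM in control. Its groups were far apart, with the highest dacomitinib library well below the lowest control library (difference −0.80, SE 0.07, adjusted p = 1.27e-04). EIF1AD, named for an eIF1A-like domain, was lower by 0.30 (adjusted p = 0.0281). Its call was lost under each of the 4 other scalings, without the limit on low values, and without control library 1 or 3 or dacomitinib library 2 or 3 (adjusted p = 0.0561 to 0.0914 for the left-out libraries). The summed level of the eIF1 genes was 188 ± 5.44 FPKM with dacomitinib and 159 ± 5.34 FPKM in control (SD, n = 3 each), most of it from EIF1.

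The 3 subunits of eIF2 did not move alike. EIF2S1, the alpha subunit that the EIF2AK kinases phosphorylate, had 13.2, 12.7 and 12.8 FPKM with dacomitinib, against 26.1, 23.0 and 28.4 FPKM in control. The dacomitinib libraries were tightly grouped and their mean was 0.499 of the control mean, a difference of −0.94 (SE 0.08, adjusted p = 8.1e-05). EIF2S2, the beta subunit, was lower by 0.37, at 69.1 ± 1.54 FPKM with dacomitinib and 89.5 ± 2.25 FPKM in control (adjusted p = 3.16e-04), and on TPM its difference was −0.06 and did not pass (adjusted p = 0.266). EIF2S3, the gamma subunit that holds GTP and the tRNA, had 53.1, 53.2 and 52.8 FPKM with dacomitinib, against 56.3, 52.1 and 57.4 FPKM in control. These groups overlapped and the difference of −0.06 did not pass (adjusted p = 0.334). On TPM and after quantile normalisation EIF2S3 was called higher, at 0.26 (adjusted p = 0.00769) and 0.21 (adjusted p = 0.0128). EIF2S3 shares 19.2% of its 50-base stretches with transcripts of other genes, among them its copy EIF2S3B, which did not pass.

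The exchange factor eIF2B was called lower in 4 of its 5 subunit genes, beside 34.8% of all tested genes. Only EIF2B2 and EIF2B3 kept that call both on TPM and after quantile normalisation. EIF2B3, the gamma subunit of the catalytic part, fell most, with 2.63, 2.53 and 2.83 FPKM with dacomitinib, against 5.88, 5.89 and 6.46 FPKM in control. The groups stood far apart (difference −0.95, SE 0.07, adjusted p = 4.6e-05). EIF2B5, the catalytic epsilon subunit, had 12.4, 12.5 and 11.9 FPKM with dacomitinib, against 15.5, 15.9 and 14.4 FPKM in control. Its groups did not overlap and the difference was smaller, −0.29 (SE 0.05, adjusted p = 0.00273), and it was 0.00 on TPM and also lost its call after quantile normalisation. EIF2B2, the beta subunit, was lower by 0.52 and kept its call under every alternative run. EIF2B1, the alpha subunit, was lower by 0.22 (adjusted p = 0.0341) and at 0.08 on TPM. Its call was lost under each of the 4 other scalings, without the limit on low values, with limma without a trend, and without control library 1 or 3 or dacomitinib library 2 or 3 (adjusted p = 0.0765 to 0.0991 for the left-out libraries). EIF2B4, the delta subunit, missed the threshold at an adjusted p of 0.0507, and with limma without a trend it passed as lower. Of the factors that deliver tRNA outside the eIF2 cycle, EIF2D was higher. With the deposited scaling it was the one higher gene of this group, the kinases apart. It had 7.57, 7.18 and 7.41 FPKM with dacomitinib, against 6.38, 5.93 and 6.33 FPKM in control. All 3 dacomitinib libraries were above all 3 control libraries (difference 0.22, SE 0.05, adjusted p = 0.0102). EIF2A was lower by 0.28, at 47.9 ± 1.78 FPKM with dacomitinib and 58.5 ± 1.34 FPKM in control, but the call did not hold on TPM (0.03) or after quantile normalisation.

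The genes of the 4 kinases of eIF2 alpha had differences between −0.25 and 0.22. EIF2AK1, the haem-regulated kinase, had 50.2, 45.4 and 44.7 FPKM with dacomitinib, against 43.2, 41.4 and 39.5 FPKM in control. The lowest dacomitinib library lay just above the highest control library, and the difference of 0.17 (SE 0.06) had an adjusted p of 0.0435. EIF2AK2, the double-stranded RNA sensor PKR, had 20.4, 23.7 and 21.8 FPKM with dacomitinib, against 19.1, 17.8 and 19.1 FPKM in control. The groups did not overlap (difference 0.22, SE 0.06, adjusted p = 0.0211). The call of EIF2AK1 was lost whichever of the 6 libraries was left out (adjusted p from just above 0.05 up to 0.120). It was also lost without the limit on low values (adjusted p = 0.083) and with limma without a trend (adjusted p = 0.074). EIF2AK2 lost its call without control library 2 or dacomitinib library 2 or 3 (adjusted p = 0.0508 to 0.0669), and kept it in 13 of 17 alternative runs. EIF2AK3, the endoplasmic reticulum stress kinase PERK, had 6.38, 7.43 and 7.14 FPKM with dacomitinib, against 7.47, 6.40 and 6.58 FPKM in control, with groups that overlapped and a difference of 0.03 (adjusted p = 0.761), though on TPM it was called higher (0.34, adjusted p = 0.0236). EIF2AK4, the amino acid sensor GCN2, had 8.59, 8.68 and 8.65 FPKM with dacomitinib, against 10.9, 10.1 and 10.4 FPKM in control. It was the one kinase gene that was lower (difference −0.25, SE 0.05, adjusted p = 0.0042), its sign turned on TPM, to 0.04, and its call was lost after quantile normalisation.

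Among 14 tested eIF3 genes 6 were lower and 4 were higher (42.9% and 28.6%, beside 34.8% and 25.4% of all tested genes). The balance turned with the scaling, to 4 lower and 6 higher on TPM and 5 lower and 6 higher after quantile normalisation. Of all tested genes, 19.8% were lower and 42.0% higher on TPM, and 28.6% and 30.4% after quantile normalisation. EIF3B, a scaffold subunit that contacts the small ribosomal subunit, had 21.4, 20.2 and 21.1 FPKM with dacomitinib, against 37.7, 35.1 and 42.5 FPKM in control. The lowest control library was far above the highest dacomitinib library (difference −0.84, SE 0.07, adjusted p = 1.03e-04). EIF3F, a subunit with an MPN domain, went the other way, with 32.4, 27.2 and 31.4 FPKM with dacomitinib, against 21.0, 20.0 and 21.1 FPKM in control. No libraries overlapped, and the difference of 0.53 (SE 0.07, adjusted p = 7.62e-04) was the highest of all members. The others that were lower were EIF3J at −0.68, EIF3I at −0.59, EIF3K at −0.56, EIF3M at −0.36 and EIF3A at −0.33. On TPM EIF3A (−0.02, adjusted p = 0.730) and EIF3M (−0.05, adjusted p = 0.480) did not pass, nor did EIF3M after quantile normalisation (adjusted p = 0.111). EIF3J is loosely bound to the complex. The others that were higher were EIF3L and EIF3H, both at 0.31, and EIF3E at 0.21. EIF3E lost its call without control library 1 or 3 or dacomitinib library 1 or 3 (adjusted p = 0.0633 to 0.0794). It also lost it without the limit on low values (adjusted p just above 0.05), and kept it in 11 of 17 alternative runs. Other annotated genes share 51.8% of the exonic bases of EIF3L. EIF3D, which can bind the cap itself, and EIF3G had differences of −0.02 and 0.01 that did not pass. Both were called higher on TPM and after quantile normalisation, EIF3D at 0.30 and 0.24 and EIF3G at 0.32 and 0.24. The summed level of the eIF3 genes without EIF3C and EIF3CL was 480 ± 25.3 FPKM with dacomitinib and 539 ± 9.46 FPKM in control, a log2 ratio of −0.17 that turned to 0.15 on TPM.

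EIF3C and EIF3CL could not be read as 2 genes. EIF3C had 1.15, 4.55 and 2.10 FPKM with dacomitinib, against 14.7, 1.61 and 3.49 FPKM in control. EIF3CL, its near-identical copy, had 1.02, 0.780 and 0.651 FPKM with dacomitinib, against 0.891, 0.692 and 9.04 FPKM in control, and passed the limit only through the last control library. One control library stood alone in each gene, a different one each time, and neither gene passed (adjusted p = 0.360 for EIF3C and 0.325 for EIF3CL). Of the 50-base stretches of their transcripts, 97.3% in EIF3CL and 45.4% in EIF3C also occur in transcripts of other genes, and how the authors counted such reads was not given in the sources used here.

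**Figure D3:**
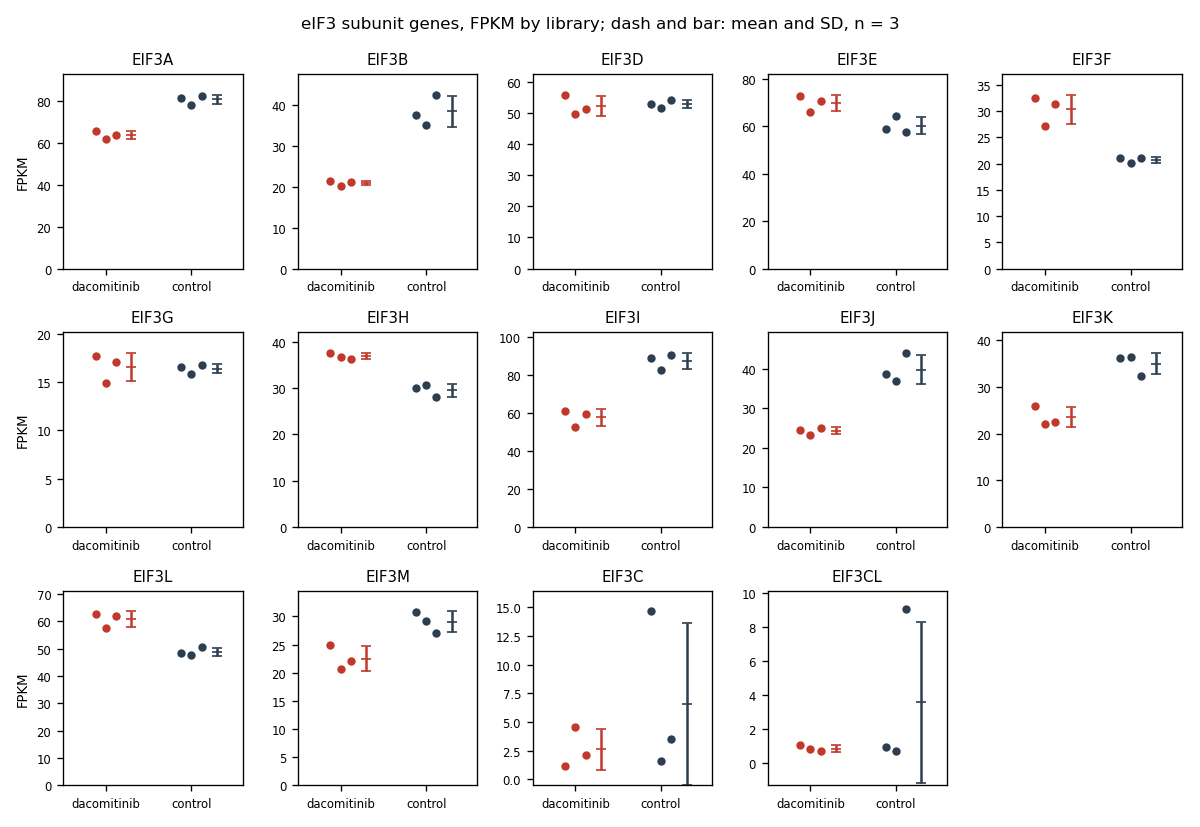
FPKM of each eIF3 subunit gene in each library, with dacomitinib libraries left of control libraries, points for libraries, and a dash and bar for the mean and SD (n = 3). EIF3B lies between 20.2 and 21.4 FPKM with dacomitinib and between 35.1 and 42.5 FPKM in control, EIF3F lies higher with dacomitinib, and EIF3C and EIF3CL each have 1 control library far from the rest.

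The cap-binding and mRNA-unwinding factors were the lowest group of more than 5 genes, with a median difference of −0.68. Of 11 tested, 7 were lower and 1 higher (63.6% and 9.09%, beside 34.8% and 25.4% of all tested genes). On TPM 6 were lower and 3 higher, with a median of −0.39, where 19.8% of all tested genes were lower and 42.0% higher. EIF4G1, the scaffold that joins the cap-binding protein to eIF3 (GRCh38, chromosome 3, 184314495 to 184335358), had 63.4, 60.7 and 65.0 FPKM with dacomitinib, against 134, 123 and 154 FPKM in control. The groups did not overlap and the dacomitinib mean was 0.460 of the control mean (difference −1.10, SE 0.08, adjusted p = 6.2e-05). EIF4G2, a relative of EIF4G1 that lacks the eIF4E-binding part and serves cap-independent initiation, had 91.6, 94.5 and 92.0 FPKM with dacomitinib, against 153, 147 and 154 FPKM in control. Each group was tightly spaced, and they did not overlap (difference −0.70, SE 0.04, adjusted p = 2.0e-05). EIF4G3 had 18.7, 19.3 and 20.3 FPKM with dacomitinib, against 24.5, 24.4 and 23.6 FPKM in control, lower by 0.30 (adjusted p = 0.0014) without overlap. It was at 0.00 on TPM and also lost its call after quantile normalisation.

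EIF4E, the cap-binding protein, had 2.75, 2.71 and 2.92 FPKM with dacomitinib, against 4.66, 5.16 and 5.48 FPKM in control. The groups did not overlap (difference −0.68, SE 0.07, adjusted p = 2.87e-04). EIF4E2, a homolog that binds the cap without recruiting EIF4G1 and acts as a repressor, had 5.38, 5.38 and 6.06 FPKM with dacomitinib, against 6.43, 6.15 and 6.55 FPKM in control. Its groups also did not overlap, but the difference of −0.16 did not pass (adjusted p = 0.0637). EIF4ENIF1, which carries eIF4E into the nucleus, had a difference of 0.10 that did not pass but was called higher on TPM (0.42), EIF4E3 stayed below the limit, and EIF4E1B was listed at 0 in all libraries.

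Among the helicases, EIF4A2 was by far the most abundant, with 124, 107 and 113 FPKM with dacomitinib, against 105, 111 and 101 FPKM in control. These groups overlapped and the difference of 0.12 did not pass (adjusted p = 0.189). It was called higher under each of the 4 other scalings, at 0.43 on TPM, 0.20 with median-ratio scaling, 0.30 after quantile normalisation and 0.19 with voom. EIF4A3, the helicase of the exon junction complex, had 14.7, 13.3 and 15.2 FPKM with dacomitinib, against 26.7, 26.1 and 23.8 FPKM in control, a difference of −0.79 (SE 0.07, adjusted p = 1.07e-04) without overlap. EIF4A1, the main eIF4A in most cultured cells, was listed at only 1.64, 1.80 and 1.23 FPKM with dacomitinib, against 3.04, 2.95 and 3.76 FPKM in control. Its difference of −0.73 (SE 0.13, adjusted p = 0.00236) rested on 419 fragments with dacomitinib and 765 in control. In the GENCODE 29 annotation 86.8% of its coding bases and 48.6% of its exonic bases also belong to other genes on the same strand, so its level is uncertain and the part of that overlap was not tested. The helicase cofactors parted: EIF4H was lower by 0.81, at 65.2 ± 2.60 FPKM with dacomitinib and 115 ± 10.0 FPKM in control. EIF4B, the other cofactor, had 109, 106 and 110 FPKM with dacomitinib, against 89.0, 87.8 and 95.1 FPKM in control. All of its dacomitinib libraries were above all control libraries, and it was the one eIF4 gene that was higher (difference 0.25, SE 0.05, adjusted p = 0.00304). Other annotated genes on the opposite strand share 21.7% of its coding bases, and 19.4% of its 50-base stretches occur in transcripts of other genes.

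**Figure D4:**
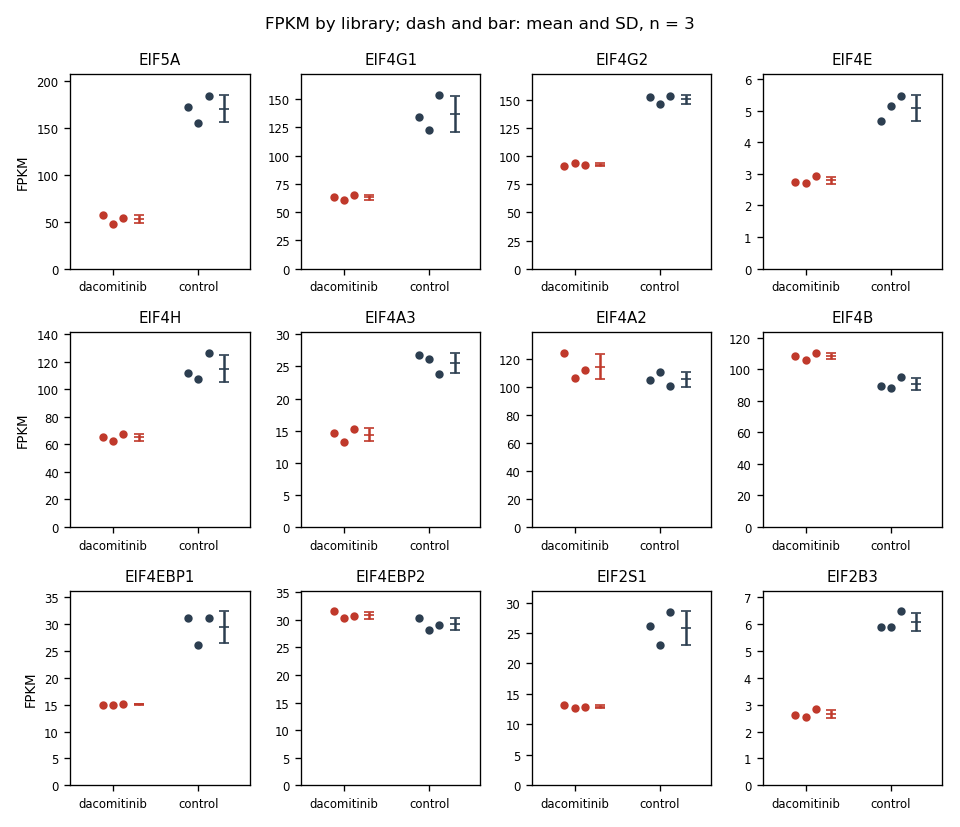
FPKM by library (vertical axes, each from 0) for 12 initiation factor genes, with dacomitinib libraries left of control libraries and a dash and bar for the mean and SD (n = 3). EIF5A lies between 47.4 and 56.5 FPKM with dacomitinib and between 155 and 184 FPKM in control, while EIF4A2 and EIF4EBP2 overlap between groups.

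The EIF4EBP repressors of eIF4E did not move as a family. EIF4EBP1 had 15.0, 15.0 and 15.2 FPKM with dacomitinib, against 31.1, 26.0 and 31.1 FPKM in control. The dacomitinib libraries hardly differed among themselves and their mean lay at 0.512 of the control mean (difference −0.92, SE 0.07, adjusted p = 7.8e-05). EIF4EBP2 had 31.5, 30.3 and 30.6 FPKM with dacomitinib, against 30.4, 28.2 and 29.1 FPKM in control, with groups that overlapped and a difference of 0.07 (adjusted p = 0.196). It was called higher on TPM, with median-ratio scaling, after quantile normalisation and with voom. EIF4EBP3 was below the limit at 1.47, 0.436 and 1.25 FPKM with dacomitinib, against 0.102, 0.282 and 0.295 FPKM in control, which are 17, 5 and 15 fragments with dacomitinib against 1, 3 and 3 fragments in control. The groups did not overlap, but without the limit its adjusted p was 0.0754, and 73.4% of its exonic bases are shared with a readthrough gene.

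The largest difference of any member was at EIF5A (chromosome 17, 7306999 to 7312463), the hypusine-bearing factor that helps ribosomes through stalling sequences and that is now known mainly for elongation and termination. It had 56.5, 47.4 and 54.3 FPKM with dacomitinib, against 172, 155 and 184 FPKM in control. The control mean was 3.23 times the dacomitinib mean, with no overlap (difference −1.67, SE 0.09, adjusted p = 1.4e-05). Other annotated genes on the opposite strand share 37.2% of the coding bases of EIF5A. Of its 50-base stretches, 15.3% occur in transcripts of other genes, and the part of either was not tested. EIF5A2, its tissue-restricted paralog, had 1.59, 2.19 and 1.45 FPKM with dacomitinib, against 3.02, 2.63 and 3.21 FPKM in control, lower by 0.53 (SE 0.13, adjusted p = 0.0101) without overlap, a call lost on TPM. EIF5AL1, an intronless copy on chromosome 10, was lower by 1.04, at 1.41 ± 0.177 FPKM with dacomitinib and 3.93 ± 0.0629 FPKM in control. Its coding sequence is nearly that of EIF5A, as coding bases 4 to 123 from GENCODE 29 show, with the differing bases in capitals.
EIF5A: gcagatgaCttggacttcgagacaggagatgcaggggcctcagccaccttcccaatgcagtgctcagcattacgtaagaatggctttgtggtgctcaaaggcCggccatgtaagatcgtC
EIF5AL1: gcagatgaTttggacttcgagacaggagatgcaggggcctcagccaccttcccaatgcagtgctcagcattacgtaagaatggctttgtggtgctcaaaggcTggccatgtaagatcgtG
Counted from the first base of the start codon, and with the EIF5A base first, the substitutions in this stretch are C12T, C106T and C123G, and over all 465 coding bases there are 5, an identity of 98.9%. The ratio of EIF5AL1 to EIF5A was 0.0273, 0.0255 and 0.0273 in the dacomitinib libraries, against 0.0228, 0.0259 and 0.0211 in the control libraries, and these groups overlapped. Fragments of the copy and of EIF5A may not be separable in such stretches, so the level of EIF5AL1 is uncertain.

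The GTPase side of subunit joining was split. EIF5, which triggers GTP hydrolysis by eIF2, had 62.1, 56.5 and 58.8 FPKM with dacomitinib, against 49.5, 49.4 and 50.3 FPKM in control. All dacomitinib libraries were above the control libraries (difference 0.24, SE 0.05, adjusted p = 0.00366). EIF5B, the GTPase that joins the subunits, was lower by 0.73 (SE 0.05, adjusted p = 4.1e-05), at 19.4 ± 0.544 FPKM with dacomitinib and 32.8 ± 1.64 FPKM in control. EIF6, which keeps free large subunits from joining too early, had 21.9, 19.1 and 21.5 FPKM with dacomitinib, against 35.9, 33.7 and 42.4 FPKM in control. Its groups did not overlap (difference −0.81, SE 0.09, adjusted p = 3.94e-04), and other annotated genes share 33.3% of its coding bases.

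Ratios of members within a library do not depend on the scaling between libraries, and 16 of them were compared, 12 of which did not overlap between groups. Of all single genes tested, 67.1% did not overlap either. No ratio could reach an exact permutation p under 0.1 with 3 libraries against 3. All 12 stood at that value, which is 0.133 after Benjamini-Hochberg adjustment over the 16. Several ratios share EIF4E or EIF2S1 as denominator and are not independent of one another.

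The ratio of EIF4EBP2 to EIF4E was 11.5, 11.2 and 10.5 with dacomitinib, against 6.52, 5.47 and 5.31 in control, a log2 difference of 0.94. The ratio of EIF4EBP1 to EIF4E was 5.45, 5.53 and 5.21 with dacomitinib, against 6.67, 5.05 and 5.66 in control, with overlap (exact p = 0.6, log2 difference −0.09). The 2 repressors thus stood differently to the cap-binding protein they sequester: the mRNA of EIF4EBP1 was lower together with that of EIF4E, and that of EIF4EBP2 was not. The EIF4E2 to EIF4E ratio was 1.96, 1.98 and 2.08 with dacomitinib, against 1.38, 1.19 and 1.19 in control.

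For the scaffolds, the EIF4G2 to EIF4G1 ratio was 1.47 ± 0.0743 with dacomitinib and 1.11 ± 0.0993 in control, and the EIF4G3 to EIF4G1 ratio was 0.309 ± 0.0118 with dacomitinib and 0.178 ± 0.0228 in control. In these libraries EIF4G1 was thus lower relative to both of its relatives. Relative to EIF2S1, the 4 kinase genes stood at between 1.65 times their control ratio, for EIF2AK4, and 2.35 times, for EIF2AK2, and EIF2B5 stood at 1.61 times. The EIF5A2 to EIF5A ratio was 0.0337 ± 0.0108 with dacomitinib and 0.0173 ± 0.000273 in control, without overlap. The EIF4A2 to EIF4A1 ratio was 75.4 ± 16.1 with dacomitinib and 32.9 ± 5.57 in control, and it carries the uncertainty of EIF4A1. EIF1B to EIF1, EIF4A3 to EIF4A1 and EIF4E3 to EIF4E overlapped.

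**Figure D5:**
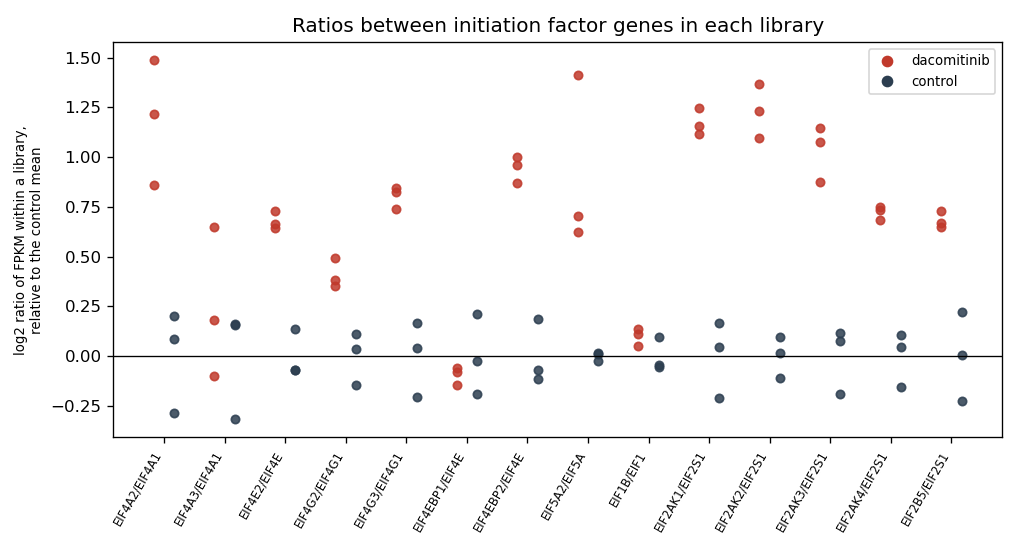
Ratio of the FPKM of 2 members within each library, as log2 relative to the mean of the control libraries (vertical axis), for 14 ratios (horizontal axis), with dacomitinib libraries left of control libraries. All dacomitinib points of EIF4EBP2 to EIF4E lie above the control points, whereas those of EIF4EBP1 to EIF4E overlap.

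RefSeq promoters matched 47 of the 56 members, and 4 motifs were searched on both strands in the 250 bases before the start. The E-box CACGTG, the site of MYC and related factors, stood in 12 of the 47 (25.5%), against 9.08% of the 8811 tested genes with a promoter and 6.49% of all 27305 promoters. It was found in 4 of 7 promoters of higher members, 7 of 26 of lower members and 0 of 10 of those that did not pass. The ETS motif CCGGAAG stood in 9 (19.1%), against 17.3% of tested genes. The palindromic NRF1 site and the CRE motif TGACGTCA stood in none of the 47, against 2.12% and 2.96% of tested genes. A match describes these letters and says nothing of binding.

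Many mRNAs of the translation machinery begin with a C followed by a run of pyrimidines, the TOP motif through which mTORC1 controls their translation. A run of at least 8 bases C or T, beginning with C and reaching within 5 bases of the annotated start, stood in 9 of the 47 members (19.1%), against 9.48% of tested genes and 8.64% of all promoters. Of these, 2 were of higher members, 3 of lower members, 3 of those that did not pass and 1 of a gene below the limit. The 30 bases from 10 before the start are shown for 7 of them, to show where the run lies, with the run in capitals.
EIF3F: cttccgCCTCCTTCTTTCTCgacaagatgg
EIF2D: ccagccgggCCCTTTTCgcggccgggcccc
EIF3K: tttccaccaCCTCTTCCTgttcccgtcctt
EIF3M: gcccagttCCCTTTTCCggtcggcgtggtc
EIF2A: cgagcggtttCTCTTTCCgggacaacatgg
EIF3D: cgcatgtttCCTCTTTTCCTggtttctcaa
EIF2S3: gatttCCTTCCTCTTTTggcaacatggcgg
EIF3F and EIF2D were higher, EIF3K, EIF3M and EIF2A were lower, and EIF3D and EIF2S3 did not pass.

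Other genes of translation were counted for comparison. Of 11 tested elongation and release factors 2 were higher and 7 lower (18.2% and 63.6%, beside 25.4% and 34.8% of all tested genes). On TPM 3 were higher and 5 lower, where 42.0% of all tested genes were higher and 19.8% lower. The higher ones with the deposited scaling were EEF2, the translocase, at 838 FPKM with dacomitinib against 581 FPKM in control (0.53), and EEF1A1, which delivers aminoacyl-tRNA, at 2008 FPKM with dacomitinib against 1414 FPKM in control (0.50). The lowest were ABCE1, the ribosome recycling ATPase, at −1.27, and GSPT1, the release factor eRF3a, at −0.84. EEF1G, a gene every cell uses, was listed at 0 in all libraries, so a gene listed at 0 here cannot be read as silent. Of 13 initiation partners 3 were higher and 8 lower (23.1% and 61.5%), led by CTIF at 0.72, which serves the nuclear cap-binding complex, and by PAIP2 at −0.59, a repressor of poly(A)-binding protein. On TPM these became 5 higher and 1 lower (38.5% and 7.69%), where 42.0% of all tested genes were higher and 19.8% lower.

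Of 14 tested genes of mTORC1 and MNK signalling 4 were higher and 6 lower, or 71.4% called beside 60.2% of all tested genes. On TPM 6 were higher and 3 lower (42.9% and 21.4%, beside 42.0% and 19.8% of all tested genes). TSC1, a brake on mTORC1, was higher at 11.0 ± 0.225 FPKM with dacomitinib and 7.43 ± 0.210 FPKM in control (0.51), and RPS6, the ribosomal target of its kinase branch, was higher by 0.26. RPS6KB2, an S6 kinase, was lower by 1.04 and MTOR itself by 0.75. Of 8 genes of eIF2 dephosphorylation and its downstream response 50% were called, beside 60.2% of all tested genes. DDIT3 and PPP1R15A were higher, by 1.15 and 0.74, PPP1CA and PPP1CC were lower, by 0.66 and 0.43, and ATF4 did not pass. On TPM 5 of the 8 were higher and 1 lower (62.5% and 12.5%, beside 42.0% and 19.8% of all tested genes). ATF4 was then called higher at 0.39 (adjusted p = 7.33e-04). DOHH, the hydroxylase that completes hypusine on eIF5A, had 3.40 FPKM with dacomitinib and 5.49 FPKM in control (−0.57), and DHPS, which begins it, was below the limit.

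The cytosolic ribosomal protein genes, abundant and classically TOP-regulated, were described last. Of 80 tested genes named as cytosolic ribosomal proteins by symbol, 10 were higher and 11 lower, or 26.3% called, beside 60.2% of all tested genes, with a median difference of 0.02. RPS23 at 0.75 and RPL13A at 0.54 were the highest, and RPL26 at −1.24 and RPL22L1 at −0.92 the lowest. On TPM, where 61.8% of all tested genes were called, 48 were higher and 6 lower, so this list too turned on the scaling, and its median relative to all genes was 0.07 with the deposited scaling and 0.10 on TPM.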

How the data were processed

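RNA was measured in 6 libraries of HaCaT cells, 3 given dacomitinib and 3 control. The authors deposited one table of FPKM per gene. Per the submitters' processing notes, the tools included CASAVA, fastp, HISAT2, featureCounts and DESeq2 1.20.0 with the build GRCh38, with no roles given. FPKM times gene length gave whole fragments, within 0.01 of a fragment, for every value, and the deposited scaling between libraries equals median-ratio size factors over genes with fragments in every library, whereas the median-ratio alternative takes its factors from the tested genes alone. Depth was 14960650 to 16179273 fragments per library. These fragments were used for depth, for sums and in 1 alternative.

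Genes with a mean of at least 1 FPKM were tested on log2(FPKM + 1) with limma 3.58.1 in R 4.3.3 (lmFit, eBayes with trend), dacomitinib minus control, two-sided, with Benjamini-Hochberg adjustment over 13748 genes and a threshold of 0.05. The test was tried on simulated data first. Ratios and sums used exact permutation tests over libraries. Each member was refitted under up to 17 alternatives of scaling, filter, pseudocount, model and left-out library, and under 15 or 16 where it fell below a limit on low values. The members and lists were chosen with earlier results of these data known. Values per library are given for the kinase and repressor genes, for members of the ratios, and for the member with the largest rise and the largest fall in each factor number. The ratio of EIF5AL1 to EIF5A was added after the values were seen. Same-numbered libraries were not paired by the labels. Overlaps between genes, gene copies and start sites came from GENCODE 29 and RefSeq (GRCh38.p14).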

Additional observations from a re-analysis of the deposited data

How the results depend on the processing

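Of 11 higher members 8 kept their call under all 17 alternatives, and EIF2AK1, EIF2AK2 and EIF3E did not. Of 29 lower members 19 kept theirs under every alternative in which they were tested, which was 16 for EIF2B2, EIF2B3, EIF4A1, EIF4E and EIF5AL1. When libraries were left out one at a time 27 kept theirs, the exceptions being EIF1AD and EIF2B1. All 11 higher members kept their call under the 4 other scalings, and 19 of the 29 lower members did. With TPM 18 members were higher and 19 lower, and the sign turned for EIF2AK4 (0.0423), EIF2A (0.0273), EIF2B1 (0.0803), EIF2B5 (0.0038), EIF2S3 (0.26), EIF3D (0.30) and EIF4G3 (0.0034), and for the summed eIF3 genes with (0.13) and without (0.15) EIF3C and EIF3CL. After quantile normalisation it turned for EIF2B1 (0.0020), EIF2S3 (0.21) and EIF3D (0.24). The log2 ratio of summed FPKM of all members was −0.32, −0.23 with median-ratio scaling and −0.0027 with TPM. With the column numbers as a replicate block, 50 of 52 members kept their call and 7883 of all genes were called, against 8271 without it. Same-numbered libraries deviated from their group means with correlations of 0.0267, −0.0158 and 0.0402 across genes, so the numbers were not taken to pair samples. The causes of these changes were not tested. Few fragments, overlapping genes and near-identical copies limit single values, and 3 libraries a group limit every exact test to 0.1.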
